A study of Drosophila melanogaster with 18 samples.

Results

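The tubulin genes of Drosophila melanogaster encode the alpha and beta subunits that pair and polymerise into microtubules, and the gamma subunit that starts new microtubules at centrosomes and other sites. Genes were chosen by name, with earlier results of these data known. Of 9 alpha-, beta- and gamma-tubulin symbols, 8 were matched by symbol to a row among the 17753 gene entries of the deposited table. betaTub60D was not analysed here, because no row carried its symbol in the annotation used, so every statement on beta-tubulin below covers the other members. Of the 8 genes found, 6 passed the filter on low counts and were tested. alphaTub67C and betaTub85D were almost without counts.

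The 18 RNA libraries come from DL1 cells, a cultured haemocyte-like line of the fly, in 6 groups with 1 library each in the biological replicate sets A, B and C. Cells were soaked with 2 µg of double-stranded RNA (dsRNA), the trigger of RNA interference in fly cells, and harvested after 3 days. The dsRNA was directed against IntS4 or IntS6, which encode subunits of the RNA-cleaving Integrator complex, or against mts or Pp2A-29B, whose products are the catalytic subunit and the scaffold of the phosphatase PP2A. The controls were B-gal dsRNA, directed against a bacterial gene, and Mock, without dsRNA. The labels give the genotype of both controls as WT and that of the other groups as a depletion, and all groups are 1 cell line with no transgene named. The series asks how depletion of Integrator and PP2A subunits changes gene expression, and PP2A is known to bind Integrator.

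Flies carry several alpha- and beta-tubulin genes that differ in where they are used. alphaTub84B, alphaTub84D and betaTub56D are the general forms, alphaTub67C is made by the mother for the egg, betaTub85D serves the testis and the sperm tail, and alphaTub85E and betaTub97EF are used in restricted tissues. Newly made tubulin is folded by prefoldin and the CCT chaperonin and paired by tubulin cofactors, and an excess of free tubulin is known in animal cells to trigger decay of tubulin mRNA.

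Library totals ran from 13445318 to 19298644 estimated counts, of which 65.1 to 74.8% fell on ribosomal RNA entries, leaving 3545828 to 6325688 counts for all other genes. The ribosomal share was 73 to 74.8% in mts libraries and 66.3 to 71.8% in B-gal libraries. The targeted genes mts and Pp2A-29B fell in their own libraries, with log2 fold changes of -1.23 (SE 0.14, adjusted p = 1.1e-06) and -1.78 (SE 0.08, adjusted p = 3.7e-11) against B-gal. IntS4 went the other way, at 227, 43.1 and 26.3 CPM (normalised counts relative to the library total) in replicates A, B and C of its own group, against 12.2, 12.3 and 11.9 CPM with B-gal dsRNA. IntS6 was also higher, at 150.3, 53.9 and 47.5 CPM in its own group, against 33.3, 29.4 and 26.8 CPM with B-gal dsRNA. These counts do not separate cellular mRNA from the dsRNA that the cells took up, whose part was not tested. These libraries are therefore called IntS4-labelled and IntS6-labelled, and every direction drawn from them below rests on that label. Of 10 plasmatocyte (macrophage-like blood cell) marker genes all had counts, among them srp at a mean of 122.4 CPM with B-gal dsRNA, while Hml was at 2.86 CPM there.

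Levels were compared per transcript length, in TPM (counts divided by exon length and scaled to a common total, ribosomal RNA included). alphaTub84B and betaTub56D were the most abundant alpha- and beta-tubulin genes matched by symbol in DL1 cells with B-gal dsRNA. The level of betaTub60D beside them is not known here. Entries without a symbol in the annotation used, including an abundant entry, were not assigned to any tubulin gene. alphaTub84B was at 1633.4 ± 185.1 TPM and betaTub56D at 1228.6 ± 140 TPM (SD, n = 3). The ranges of these genes did not overlap, at 1466.1 to 1832.2 TPM for alphaTub84B and 1130.2 to 1388.9 TPM for betaTub56D. alphaTub84D followed at 130.3 ± 17.7 TPM. betaTub97EF was at 14.4 ± 2.33 TPM (11.7 to 16.2) and gammaTub23C at 10.6 ± 1.19 TPM (9.62 to 11.9), so the last pair overlapped and their order is not fixed by these libraries. alphaTub85E stood at 0.234 ± 0.126 TPM, from 6 counts in all in the 3 libraries.

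**Figure D1:**
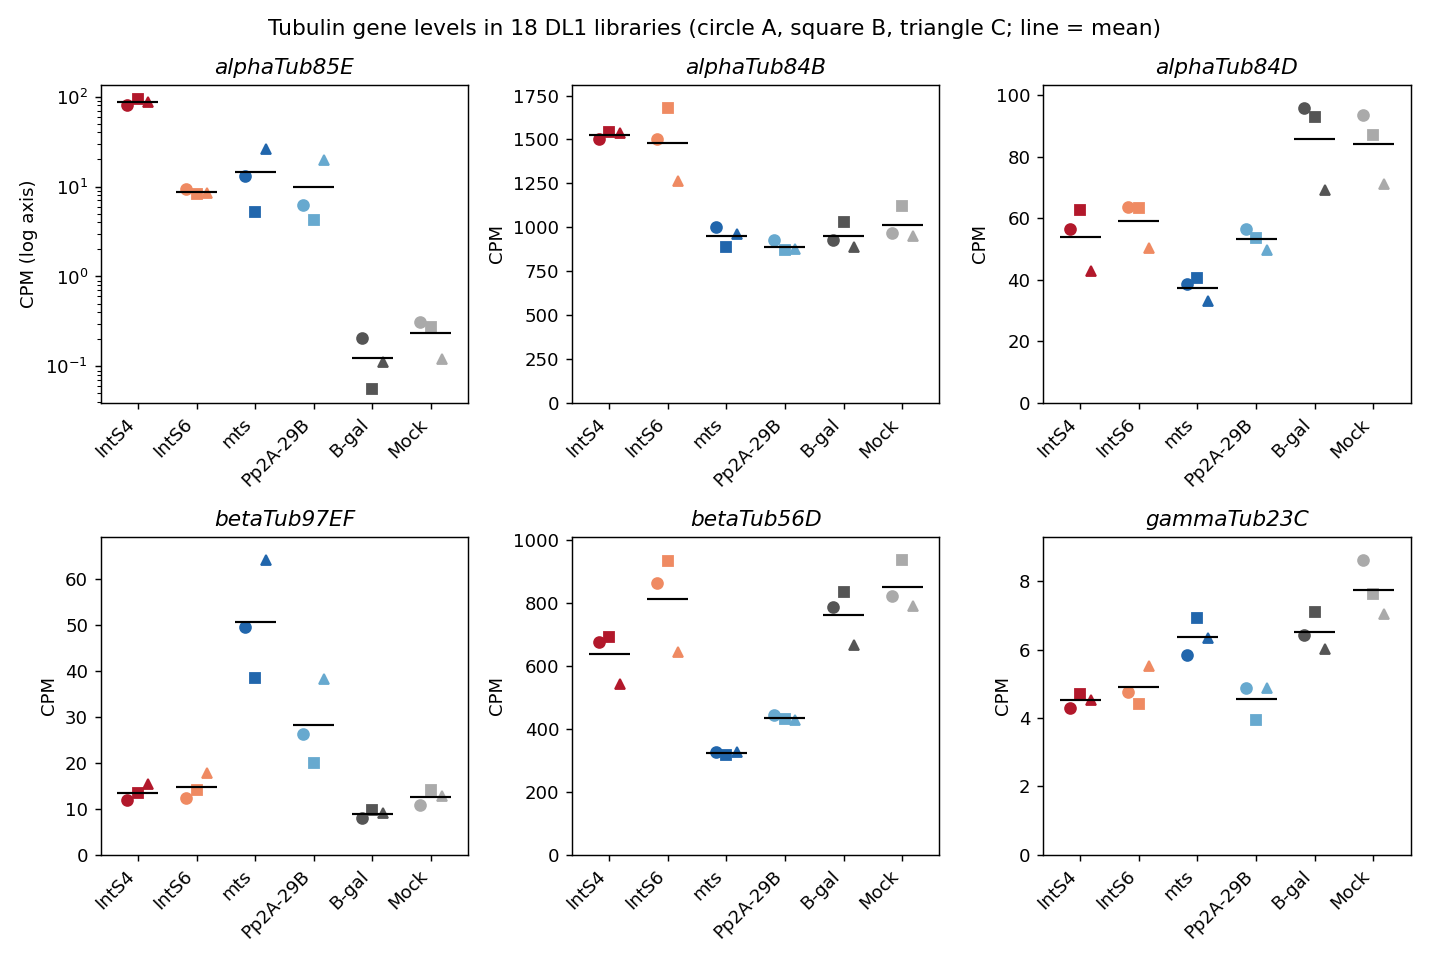
Level of each of the 6 tested tubulin genes in CPM on the vertical axes (logarithmic for alphaTub85E, from 0 for the others) in the IntS4, IntS6, mts and Pp2A-29B dsRNA groups and the B-gal and Mock groups, with circles, squares and triangles for replicates A, B and C and a line at the group mean. alphaTub85E lies between 4.28 and 93.2 CPM in the 4 groups on the left and between 0.0568 and 0.31 CPM in B-gal and Mock.

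Levels of a gene between groups are given below as CPM, scaled to the library total with TMM factors. Fold changes, standard errors and p-values come from edgeR's quasi-likelihood test on 1 fit of all 18 libraries, adjusted by the Benjamini-Hochberg method over the 8699 genes tested, and a gene is called changed when its adjusted p is under 0.05. All 4 dsRNA groups are compared with the same 3 B-gal libraries, so these comparisons share their control samples. The replicate sets are biological replicates per the labels, and p-values measure the spread between them. In bulk RNA, more cells of one kind and more RNA per cell cannot be told apart.

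With IntS4-labelled dsRNA, 3 of 6 tested tubulin genes were higher (alphaTub85E, alphaTub84B and betaTub97EF), 2 were lower (alphaTub84D and gammaTub23C) and betaTub56D was not called. With IntS6-labelled dsRNA the same calls were made for each of the 6 genes. alphaTub85E, which counts as higher in all 4 comparisons, entered the test only through the groups in which it is high, so its call was bound to follow and leaves 5 genes to read. With mts dsRNA, 2 were higher (alphaTub85E and betaTub97EF), 2 were lower (alphaTub84D and betaTub56D) and 2 were not called. With Pp2A-29B dsRNA, 2 were higher (alphaTub85E and betaTub97EF), 3 were lower (alphaTub84D, betaTub56D and gammaTub23C) and alphaTub84B was not called. Against these counts stands a background of 47.1% of all tested genes called in the IntS4-labelled libraries, 45.7% in the IntS6-labelled libraries, 51.4% with mts dsRNA and 38.8% with Pp2A-29B dsRNA. By direction, 27% of all tested genes were higher and 20.2% lower with the IntS4 label, and 26.4% higher and 19.3% lower with the IntS6 label. With mts dsRNA 26.6% were higher and 24.8% lower, and with Pp2A-29B dsRNA 21% were higher and 17.8% lower. A call alone was therefore common in these comparisons. The median log2 fold change of the 6 tested tubulin genes was 0.17 with IntS4-labelled, 0.37 with IntS6-labelled, -0.01 with mts and -0.3 with Pp2A-29B dsRNA. That of all tested genes lay between -0.01 and 0. These medians include alphaTub85E, so they are not read as a shift of the family. Among the 5 other genes the middle value was -0.26 with the IntS4 label and 0.09 with the IntS6 label, both from betaTub56D. It was -0.03 with mts and -0.51 with Pp2A-29B dsRNA, both from gammaTub23C.

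**Figure D2:**
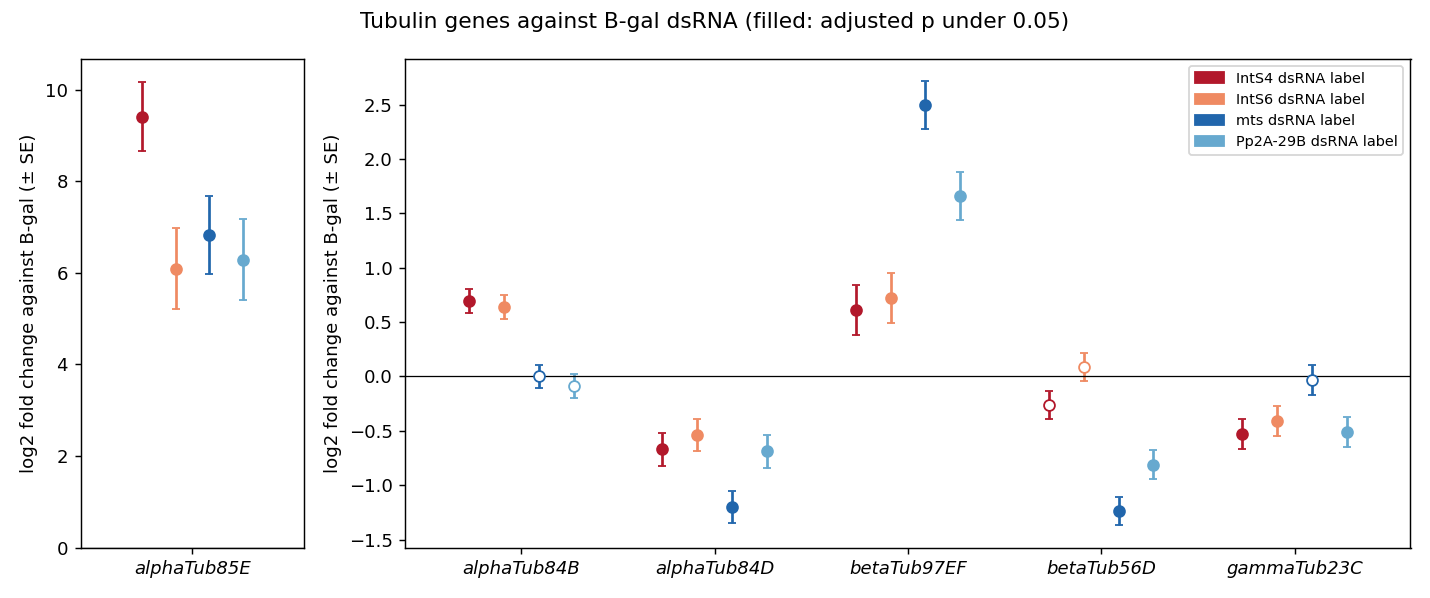
Log2 fold change against B-gal dsRNA (vertical axes, separate scale for alphaTub85E) of the 6 tested tubulin genes with IntS4, IntS6, mts and Pp2A-29B dsRNA, as points with standard errors, filled where the adjusted p is under 0.05. alphaTub84B is filled above 0 for the IntS4 and IntS6 labels, at 0.69 and 0.64, while betaTub56D is filled below 0 for mts and Pp2A-29B, at -1.24 and -0.81.

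alphaTub84B (FBgn0003884, 3R from 7086599 to 7088839, plus strand, 2 exons), the main alpha-tubulin gene of these cells, was higher in the Integrator-labelled libraries and near its control level in the PP2A libraries. It had 1499.9, 1541 and 1535.3 CPM in IntS4-labelled libraries A, B and C. It had 1502.2, 1676.2 and 1262.3 CPM in IntS6-labelled libraries. With mts dsRNA it had 999.8, 887.5 and 962.8 CPM. All 6 Integrator-labelled libraries lay above all 12 others. With Pp2A-29B dsRNA it had 926.7, 870.1 and 875 CPM, against 925.8, 1032.2 and 885.3 CPM with B-gal dsRNA and 967.9, 1122.8 and 949.3 CPM in Mock. The mts libraries overlapped the Pp2A-29B, B-gal and Mock libraries, and the Pp2A-29B libraries overlapped those of B-gal but lay below all Mock libraries.

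Against B-gal, alphaTub84B rose in the IntS4-labelled libraries (log2 fold change 0.69, SE 0.11, adjusted p = 2.7e-05). The change was 0.64 (SE 0.11, adjusted p = 6e-05) in the IntS6-labelled libraries. With mts dsRNA the difference was 0 with a 95% interval from -0.23 to 0.23, and with Pp2A-29B dsRNA it was -0.09 with an interval from -0.32 to 0.14. The mean of the mts and Pp2A-29B groups was below the mean of the IntS4- and IntS6-labelled groups by a log2 difference of -0.71 (SE 0.07, adjusted p = 1.8e-07), which tests the contrast between the pairs directly. Fractional counts, which arise where 1 read is shared out over more than 1 place, occurred for alphaTub84B in 16 of 18 libraries. alphaTub84D, whose protein is known to be nearly the same, had them in 8, so the division of reads between these genes is uncertain. With the counts of both genes summed, an alternative added after the data were seen, the change was 0.61 with IntS4-labelled and 0.57 with IntS6-labelled dsRNA (adjusted p = 9.1e-05 and 0.00019).

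alphaTub84D (FBgn0003885, 3R from 7530753 to 7532732, plus strand, 1 exon), the minor general alpha-tubulin gene, was lower in all 4 dsRNA groups, also where alphaTub84B was higher. It had 56.6, 62.6 and 42.8 CPM in the IntS4-labelled libraries. It had 63.8, 63.2 and 50.4 CPM in the IntS6-labelled libraries. With mts dsRNA it had 38.7, 40.6 and 33.1 CPM, the lowest values of the 6 groups. With Pp2A-29B dsRNA it had 56.5, 53.5 and 49.6 CPM, against 95.7, 92.8 and 69.3 CPM with B-gal dsRNA and 93.6, 87.1 and 71.3 CPM in Mock. None of the 12 libraries of the 4 targeted groups reached the lowest B-gal or Mock library, and replicate C was the lowest of its group in all 6 groups.

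The log2 fold change of alphaTub84D against B-gal was -0.67 (SE 0.15, adjusted p = 0.0011) with IntS4-labelled and -0.54 (SE 0.15, adjusted p = 0.006) with IntS6-labelled dsRNA. It was -1.2 (SE 0.15, adjusted p = 3.5e-06) with mts and -0.69 (SE 0.15, adjusted p = 0.0012) with Pp2A-29B dsRNA. Both PP2A groups differed from each other, with Pp2A-29B above mts by 0.5 (SE 0.15, adjusted p = 0.044). In this fit without a replicate block, the call was lost when any 1 of 5 of the 6 libraries was left out. The edgeR fit with a replicate block gave 0.51 (SE 0.08, adjusted p = 0.0004). The PP2A pair lay below the Integrator pair (log2 difference -0.34, SE 0.11, adjusted p = 0.011), with overlapping libraries. As a share of the TPM of the 4 alpha-tubulin genes measured, alphaTub84D made up 2.86% with IntS4-labelled, 3.4% with IntS6-labelled, 3.33% with mts and 4.96% with Pp2A-29B dsRNA. Its share was 7.41% with B-gal dsRNA and 6.84% in Mock, and the lowest share in these control libraries, 6.23%, was above the highest in the others, 5.14%. These shares carry the uncertainty in the division of reads. The neighbour alpha-Est5, 764 bp downstream on the other strand, was higher in all 4 groups. Its log2 fold changes were 3.67, 4.03, 2.12 and 2.59 in the same order, opposite in sign to alphaTub84D. It was near the limit of detection, at means of 1.36, 1.75, 0.465 and 0.636 CPM against 0.0981 CPM with B-gal dsRNA. Like alphaTub85E below, it entered the test only through groups in which it is higher, so a difference had to follow.

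alphaTub85E (FBgn0003886, 3R from 9731221 to 9733250, minus strand, 3 exons), an alpha-tubulin gene known from embryonic muscle, sensory organ support cells and the testis, had the largest change of the tubulin genes tested. It had 79.8, 93.2 and 86.8 CPM in the IntS4-labelled libraries. It had 9.36, 8.2 and 8.49 CPM in the IntS6-labelled libraries. Within each of these groups the libraries were close to one another, and the groups did not overlap. With mts dsRNA it had 13, 5.15 and 25.9 CPM. With Pp2A-29B dsRNA it had 6.18, 4.28 and 19.5 CPM, against 0.205, 0.0568 and 0.111 CPM with B-gal dsRNA and 0.31, 0.274 and 0.122 CPM in Mock. Every library of the 4 targeted groups was above every B-gal and Mock library. In the mts and Pp2A-29B groups replicate C was the highest and replicate B the lowest.

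The B-gal libraries held 3, 1 and 2 counts of alphaTub85E and the Mock libraries 5, 5 and 2. The gene passed the filter only through the groups in which it is high, so a difference had to follow from its being tested at all. Fitted log2 fold changes against B-gal were 9.41 (SE 0.76, adjusted p = 6.9e-09) with IntS4-labelled and 6.09 (SE 0.89, adjusted p = 1.7e-05) with IntS6-labelled dsRNA. They were 6.83 (SE 0.85, adjusted p = 2.6e-06) with mts and 6.29 (SE 0.88, adjusted p = 1.9e-05) with Pp2A-29B dsRNA, and they depend on the prior count used for so few control counts. The ratio of normalised counts with its exact 95% counting interval was 731.8 (335.9 to 1995.3) for the IntS4-labelled libraries. It was 73.1 (33.3 to 200.2) for the IntS6-labelled libraries, 117.2 (53.5 to 320.8) for mts and 83.4 (38 to 228.3) for Pp2A-29B. The intervals cover counting error only and leave out the spread between replicates. They also take reads as independent molecules, which copies made by PCR are not. Without replicate C of its own group the log2 fold change was 6.17 for mts and 5.36 for Pp2A-29B.

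alphaTub85E differed between the Integrator-labelled groups. IntS6-labelled libraries were below IntS4-labelled libraries by a log2 difference of -3.31 (SE 0.44, adjusted p = 8.3e-05). It was the 1 tubulin gene of 6 called between these groups, against a background of 6.54% of all tested genes, 2.53% higher and 4.01% lower. Pp2A-29B and mts did not differ beyond their spread, with a difference of -0.54 and a 95% interval from -1.51 to 0.43. That value rests on single libraries, as it was 0.13 (adjusted p = 0.9) without mts replicate C and -1.47 (adjusted p = 0.026) without Pp2A-29B replicate C. The PP2A pair was below the Integrator pair (difference -1.19, SE 0.31, adjusted p = 0.0028), but the libraries overlapped and the IntS6-labelled values alone lay within the range of the PP2A groups.

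As a share of the TPM of the 4 alpha-tubulin genes, alphaTub85E made up 5.82 ± 0.344% in the IntS4-labelled libraries, more than alphaTub84D there. The share was 0.641 ± 0.101% in the IntS6-labelled libraries, 1.62 ± 1.13% with mts and 1.18 ± 0.993% with Pp2A-29B dsRNA (SD, n = 3 each). It was 0.0139 ± 0.00853% with B-gal dsRNA and 0.0241 ± 0.00985% in Mock. Even at its highest alphaTub85E therefore remained a minor part of alpha-tubulin RNA, with alphaTub84B at 91.3% in the same libraries. The genes on either side, FoxP at 349 bp and side-VII at 762 bp, both on the same strand, had at most 0.145 CPM on average in the 4 targeted groups, and were too low to be tested.

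**Figure D3:**
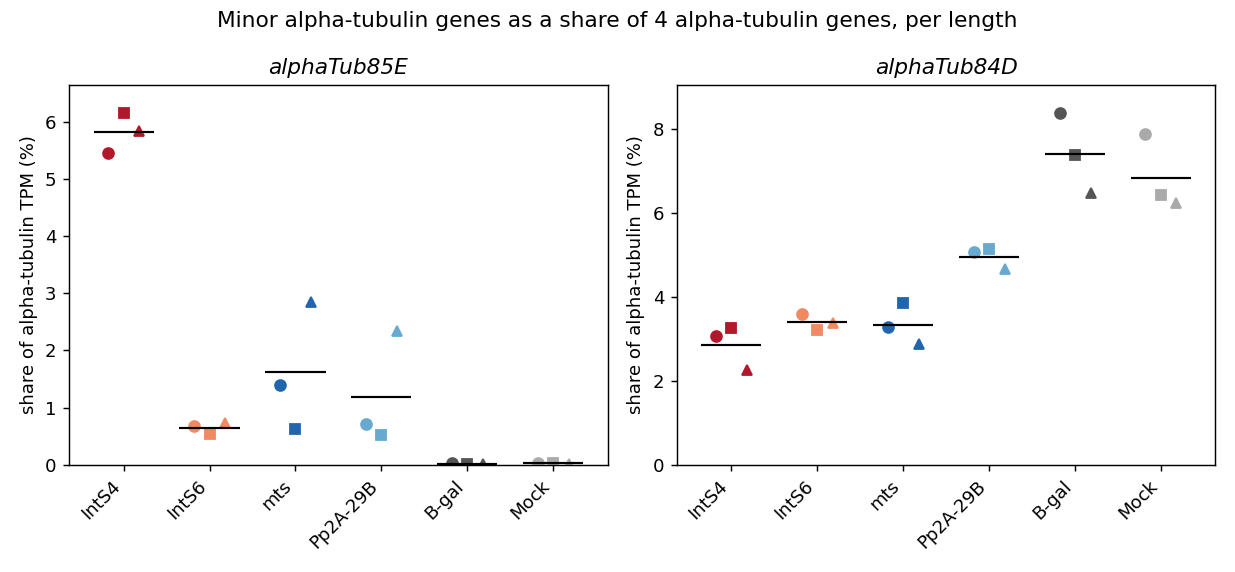
Share of the summed TPM of the 4 alpha-tubulin genes measured (vertical axes, percent) taken by alphaTub85E and alphaTub84D in each library, with circles, squares and triangles for replicates A, B and C and a line at the group mean. alphaTub85E reaches 5.46 to 6.15% in the IntS4-labelled libraries, while alphaTub84D is at 6.23 to 8.38% in B-gal and Mock and at most 5.14% in the 4 other groups.

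betaTub56D (FBgn0284243, 2R from 19447319 to 19451600, minus strand), the most abundant beta-tubulin gene matched by symbol, was lower with PP2A dsRNA. It had 676.3, 692.1 and 542.6 CPM in the IntS4-labelled libraries. It had 862.8, 933 and 642.9 CPM in the IntS6-labelled libraries. Both of these groups overlapped the B-gal libraries. With mts dsRNA it had 324.8, 315.3 and 325.2 CPM. With Pp2A-29B dsRNA it had 442.8, 430.9 and 427.6 CPM, against 786.1, 834.7 and 666.3 CPM with B-gal dsRNA and 821.5, 935.3 and 790.6 CPM in Mock. All 6 PP2A libraries lay below all 12 others, and mts lay below Pp2A-29B. Fractional counts occurred for betaTub56D in 15 of 18 libraries. Which places shared these reads is not known here, so the division of its reads is uncertain too.

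The log2 fold change of betaTub56D against B-gal was -1.24 (SE 0.13, adjusted p = 3.4e-07) with mts and -0.81 (SE 0.13, adjusted p = 6.3e-05) with Pp2A-29B dsRNA. It was -0.26 (SE 0.13, adjusted p = 0.1) with IntS4-labelled dsRNA, which the fit with a replicate block turned into a call (adjusted p = 0.026), as did Mock in place of B-gal (-0.41, adjusted p = 0.012). With IntS6-labelled dsRNA it was 0.09, with a 95% interval from -0.18 to 0.37. The PP2A pair differed from the Integrator pair by a log2 difference of -0.95 (SE 0.09, adjusted p = 5.1e-08). Pp2A-29B was above mts by 0.43 (SE 0.13, adjusted p = 0.04). In this fit without a replicate block, the call was lost when any 1 of the 6 libraries was left out. The edgeR fit with a replicate block gave 0.43 (SE 0.09, adjusted p = 0.0046). Of the neighbours, EloC at 1033 bp on the same strand was 0.18 with mts and -0.02 with Pp2A-29B dsRNA, and CG7744 at 904 bp on the other strand was 0.68 and 0.65, as log2 fold changes. With the IntS4 and IntS6 labels CG7744 was -0.74 and -0.75, both called. EloC was -0.3 with the IntS4 label, not called, and -0.61 with the IntS6 label, called.

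betaTub97EF (FBgn0003890, 3R from 27967008 to 27988384, minus strand), a beta-tubulin gene known from the fly gut and haemocytes and for its induction in the cold, was higher in all 4 dsRNA groups than in B-gal and highest with mts dsRNA. It had 11.8, 13.4 and 15.4 CPM in the IntS4-labelled libraries. It had 12.3, 14 and 17.8 CPM in the IntS6-labelled libraries. With mts dsRNA it had 49.4, 38.4 and 64 CPM, each above every library of every other group. With Pp2A-29B dsRNA it had 26.3, 19.9 and 38.2 CPM, against 7.92, 9.71 and 9.02 CPM with B-gal dsRNA and 10.8, 14.1 and 12.7 CPM in Mock. The Mock libraries lay between the B-gal and the PP2A libraries and overlapped both Integrator-labelled groups.

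The log2 fold change of betaTub97EF against B-gal was 2.5 (SE 0.22, adjusted p = 5.2e-08) with mts and 1.66 (SE 0.22, adjusted p = 1.1e-05) with Pp2A-29B dsRNA. It was 0.61 (SE 0.23, adjusted p = 0.034) with IntS4-labelled and 0.72 (SE 0.23, adjusted p = 0.013) with IntS6-labelled dsRNA. The last pair of calls depended on the control. Against Mock, an alternative added after the data were seen, the changes were 0.11 (adjusted p = 0.71) and 0.23 (adjusted p = 0.43), whereas mts and Pp2A-29B stayed called at 2.01 and 1.16 (adjusted p = 5.4e-07 and 0.00032). Both calls were also lost when 1 library was left out. For the IntS4 label this held for IntS4 replicate B or C and B-gal replicate A or C (adjusted p 0.067 to 0.12). For the IntS6 label it held for IntS6 replicate C and B-gal replicate A (adjusted p = 0.08 and 0.053).

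In the direct contrast, the PP2A pair was above the Integrator pair by 1.42 (SE 0.15, adjusted p = 2e-07). Pp2A-29B was below mts (log2 difference -0.85, SE 0.21, adjusted p = 0.016), a call lost without mts replicate C (-0.64, adjusted p = 0.08), without Pp2A-29B replicate A or B (adjusted p = 0.08 and 0.089), and with only those groups in the fit (adjusted p = 0.06). Per TPM of betaTub56D, betaTub97EF was at 1.75, 1.94 and 2.84% in the IntS4-labelled libraries and 1.43, 1.5 and 2.76% in the IntS6-labelled libraries. It was at 15.2, 12.2 and 19.7% with mts and 5.93, 4.62 and 8.92% with Pp2A-29B dsRNA. With B-gal dsRNA it was at 1.01, 1.16 and 1.35%, and in Mock at 1.31, 1.51 and 1.6%. Every PP2A library was above every other library in this ratio, with betaTub97EF higher and betaTub56D lower. The ratio carries the uncertainty in the division of betaTub56D reads. CG4849, which ends 50 bp from betaTub97EF on the other strand, had log2 fold changes of -1.46 and -1.34 with mts and Pp2A-29B dsRNA, opposite in sign.

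gammaTub23C (FBgn0260639, 2L from 2972891 to 2974858, plus strand, 3 exons), the gamma-tubulin of dividing body cells, was modestly lower in all groups but mts. It had 4.3, 4.7 and 4.52 CPM in the IntS4-labelled libraries. It had 4.76, 4.41 and 5.53 CPM in the IntS6-labelled libraries. With mts dsRNA it had 5.85, 6.92 and 6.34 CPM. With Pp2A-29B dsRNA it had 4.88, 3.95 and 4.86 CPM, against 6.41, 7.1 and 6.01 CPM with B-gal dsRNA and 8.61, 7.62 and 7.03 CPM in Mock. The mts libraries overlapped the B-gal libraries, and the other 9 targeted libraries lay below all B-gal libraries.

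The log2 fold change of gammaTub23C against B-gal was -0.53 (SE 0.14, adjusted p = 0.0043) with IntS4-labelled and -0.51 (SE 0.14, adjusted p = 0.0069) with Pp2A-29B dsRNA. It was -0.41 (SE 0.14, adjusted p = 0.021) with IntS6-labelled dsRNA, a call lost without the filter (adjusted p = 0.071), with only those groups in the fit (0.066) and without IntS6 replicate A or B or B-gal replicate B (0.063, 0.084 and 0.089). With mts dsRNA the difference was -0.03, with a 95% interval from -0.33 to 0.26. Pp2A-29B was below mts (log2 difference -0.48, SE 0.14, adjusted p = 0.04), a call lost in edgeR without any 1 of 5 of the 6 libraries. With all libraries, the call was also lost in DESeq2 (adjusted p = 0.061) and in edgeR without the filter (0.085). It was lost as well with only those groups in the fit (0.093). The difference between the pairs of complexes was 0.2 and not called (95% interval -0.02 to 0.41). CG9641 lies 1 bp past the end of gammaTub23C on the other strand, and the sources do not say whether reads were counted by strand, so reads of these genes may not be separable. Its log2 fold changes were 0.61, 0.57, -0.54 and -0.45 with IntS4-labelled, IntS6-labelled, mts and Pp2A-29B dsRNA.

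The remaining tubulin genes matched by symbol were at or near the limit of detection. alphaTub67C (FBgn0087040, 3L from 9681268 to 9683370, plus strand), the maternal alpha-tubulin, had 10 counts in all 18 libraries together. betaTub85D (FBgn0003889, 3R from 9408383 to 9410282, minus strand), the testis beta-tubulin, had 5. Neither was detectable in the IntS4-labelled or mts libraries, where a count of 0 over the 3 libraries allows up to 0.0616 and 0.0722 CPM. Of 10 testis markers, can, nht, dj and Mst87F also had no count in any library. The list was not silent as a whole, with mia at 4.06 CPM and fzo at 3.23 CPM on average with B-gal dsRNA. fzo was higher with the IntS4 label (0.5, adjusted p = 0.049) and the IntS6 label (0.75, adjusted p = 0.0047), and mia was lower with mts dsRNA (-0.76, adjusted p = 0.015). Outside the 9 chosen genes, gammaTub37C, the maternal gamma-tubulin, was at a mean of 26.2 CPM with B-gal dsRNA. It was lower in the Integrator-labelled groups, with changes of -0.32 (adjusted p = 0.031) for IntS4 and -0.62 (adjusted p = 0.00029) for IntS6, and it was 0.04 and 0.13, both not called, with mts and Pp2A-29B dsRNA. betaTub65B was at 0.836 CPM with B-gal dsRNA and lower with mts dsRNA (-1.65, SE 0.64, adjusted p = 0.038).

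The control dsRNA itself changed no tubulin gene past the test. Between B-gal and Mock, edgeR called 0 of 6 tubulin genes and 0% of all tested genes, with 243 genes at an unadjusted p under 0.05, and DESeq2 also called 0, with 198. betaTub97EF was the tubulin gene nearest to a difference, with B-gal below Mock (log2 difference -0.49, SE 0.23, unadjusted p = 0.042, adjusted p = 1) and no overlap between the libraries. Between the PP2A subunits, 4 of 6 tubulin genes were called, 2 higher and 2 lower, against a background of 9.75%, with 4.81% higher and 4.94% lower. The paired fit with a replicate block called 1457 genes in place of 848, and again 4 tubulin genes. Without the block, the 4 calls fell to 2 with only those groups in the fit. They fell to 0 without mts replicate C, Pp2A-29B replicate A or Pp2A-29B replicate B, and to 1 without mts replicate A or B. Between the PP2A and the Integrator pair, 1 tubulin gene was higher (betaTub97EF) and 4 were lower (alphaTub84B, alphaTub84D, alphaTub85E and betaTub56D), against a background of 59.6% called, 26% higher and 33.6% lower.

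Among the folding factors of tubulin, most CCT chaperonin genes were called higher with each PP2A dsRNA. This list and those below were chosen with earlier results of these data known, so their counts are descriptive. All 8 CCT genes were called higher with mts dsRNA (median log2 fold change 0.5, against 0 over all genes) and 6 of 8 with Pp2A-29B dsRNA (median 0.38, against -0.01). None was called higher in the Integrator-labelled libraries, where 2 of 8 (CCT8 and CCT5) were lower with the IntS4 label and 1 (CCT8) with the IntS6 label. The share of all tested genes called lower was 20.2% with the IntS4 label and 19.3% with the IntS6 label. CCT4 had a mean of 454.1 CPM with mts and 432.2 CPM with Pp2A-29B dsRNA, against 244.6 CPM with B-gal dsRNA (changes 0.89 and 0.82, adjusted p = 1.6e-05 and 6.6e-05). CCT3 was changed by 0.72 and 0.5 in the same groups. Of 6 prefoldin genes, 5 were higher with mts (median 0.68) and 3 with Pp2A-29B dsRNA (median 0.43), and none was lower. Over all tested genes 26.6% were higher with mts and 21% with Pp2A-29B dsRNA. Pfdn1 had 17.8 and 16.9 CPM in these groups, against 10.8 CPM with B-gal dsRNA, and Pfdn6 had 28.3 and 27.2 CPM, against 17.4 CPM. In the direct contrast, all 8 CCT and all 6 prefoldin genes were called higher in the PP2A pair than in the Integrator pair. Their medians were 0.79 and 0.74, against -0.05 over all genes. Over all tested genes 26% were higher and 33.6% lower in this contrast.

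The other lists of the tubulin pathway were mixed. Of the 7 tubulin cofactors, which pair alpha with beta subunits, 1 was higher and 2 lower with the IntS4 label, 2 higher and 1 lower with the IntS6 label, 1 each with mts and none with Pp2A-29B dsRNA. Over all tested genes 27% were higher and 20.2% lower with the IntS4 label, to which the cofactor counts there are close. The all-gene shares were 26.4% higher and 19.3% lower with the IntS6 label. They were 26.6% higher and 24.8% lower with mts and 21% higher and 17.8% lower with Pp2A-29B dsRNA. mlt, the cofactor E-like gene, had 12.6 CPM with the IntS4 label and 25.2 CPM with the IntS6 label, against 5.04 CPM with B-gal dsRNA (changes 1.3 and 2.3, adjusted p = 0.0036 and 1.4e-05). Tbca was lower with the IntS4 label and with mts (-0.5 and -0.51), and Tbcb was higher with mts (0.61). Of 9 tested gamma-tubulin complex and centrosome genes, 2 were higher and 3 lower with the IntS4 label and 4 higher and 3 lower with the IntS6 label. With mts dsRNA 3 were lower, and with Pp2A-29B dsRNA 1 was higher. The all-gene shares just given stand against these counts too, such as 26.4% higher and 19.3% lower with the IntS6 label. spd-2, a centriole component that recruits gamma-tubulin, was lower, with changes of -0.85, -0.82 and -0.47 with the IntS4 label, the IntS6 label and mts. Plp, a centriole scaffold gene, was higher by 1.05 and 0.83 with the IntS4 and IntS6 labels. Grip71 was lower, at -1.05 with the IntS6 label and -0.73 with mts, and Grip84 was higher by 0.32 with Pp2A-29B dsRNA.

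Of 10 tested genes for enzymes that modify tubulin, 3 were higher and 2 lower with each Integrator label, 2 higher and 1 lower with mts and 5 higher and 1 lower with Pp2A-29B dsRNA. The counts with the Integrator labels were close to the all-gene shares, at 27 and 26.4% higher and 20.2 and 19.3% lower for IntS4 and IntS6. Those shares were 26.6% higher and 24.8% lower with mts and 21% higher and 17.8% lower with Pp2A-29B dsRNA. Atat, the alpha-tubulin acetyltransferase, had a mean of 30.8 CPM with the IntS4 label, 30.7 CPM with the IntS6 label and 17.2 CPM with mts, against 9.92 CPM with B-gal dsRNA. Its changes were 1.64, 1.63 and 0.8 (adjusted p = 8.8e-09, 1.1e-08 and 8.9e-05). Nna1, a gene of the tubulin deglutamylase family, was higher by 1.52 and 2.49 with the IntS4 and IntS6 labels. Its levels were low, at 1.73 and 3.4 CPM against 0.603 CPM with B-gal dsRNA. TTLL6B, of the tubulin tyrosine ligase-like family, was higher by 2.47 and 2.5 with mts and Pp2A-29B dsRNA (SE 0.42 each). It was also low, at 2.27 and 2.32 CPM against 0.419 CPM with B-gal dsRNA. TTLL12 was lower, at -0.67 with both mts and Pp2A-29B dsRNA.

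Of 20 tested microtubule-binding genes, 3 were higher and 4 lower with the IntS4 label, 3 higher and 5 lower with the IntS6 label, 7 higher and 7 lower with mts and 5 higher and 6 lower with Pp2A-29B dsRNA. The all-gene shares were 27% higher and 20.2% lower with the IntS4 label and 26.4 and 19.3% with the IntS6 label. They were 26.6% higher and 24.8% lower with mts and 21 and 17.8% with Pp2A-29B dsRNA. The counts were therefore near or below the background in the Integrator-labelled libraries and not far above it with mts. futsch, the fly MAP1B homologue, had 44.1 CPM with the IntS4 label and 37.7 CPM with the IntS6 label, against 2.96 CPM with B-gal dsRNA (changes 3.89 and 3.66, adjusted p = 1.4e-12 and 4.3e-12). asp, a spindle pole gene, was lower in all 4 groups, with changes of -0.54, -0.56, -1.47 and -1 with the IntS4 label, the IntS6 label, mts and Pp2A-29B dsRNA. mars, a mitotic spindle gene, was lower, at -1.21 and -0.94 with mts and Pp2A-29B dsRNA. shot, the spectraplakin gene, was higher by 0.66 with the IntS4 label and 1.14 with mts, and stai, the stathmin gene whose product binds free tubulin, was 0.7 with the IntS6 label and -0.65 with Pp2A-29B dsRNA, both called.

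Of 27 tested kinesin and dynein genes, 3 were higher and 8 lower with the IntS4 label and 4 higher and 7 lower with the IntS6 label. With mts dsRNA 13 were higher and 8 lower, and with Pp2A-29B dsRNA 8 were higher and 6 lower. The all-gene shares were 27% higher and 20.2% lower with the IntS4 label, 26.4 and 19.3% with the IntS6 label, 26.6 and 24.8% with mts and 21 and 17.8% with Pp2A-29B dsRNA. The transport motors Khc and Dhc64C were higher with mts (0.99 and 0.79) and Pp2A-29B dsRNA (0.56 and 0.52). pav, a kinesin of cytokinesis, was lower in all 4 groups, with changes of -0.56, -0.54, -0.8 and -0.48. Klp67A, a mitotic kinesin, was lower, at -0.51 and -0.64 with the IntS4 and IntS6 labels, and Klp31E was higher by 0.89 and 0.88.

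**Figure D4:**
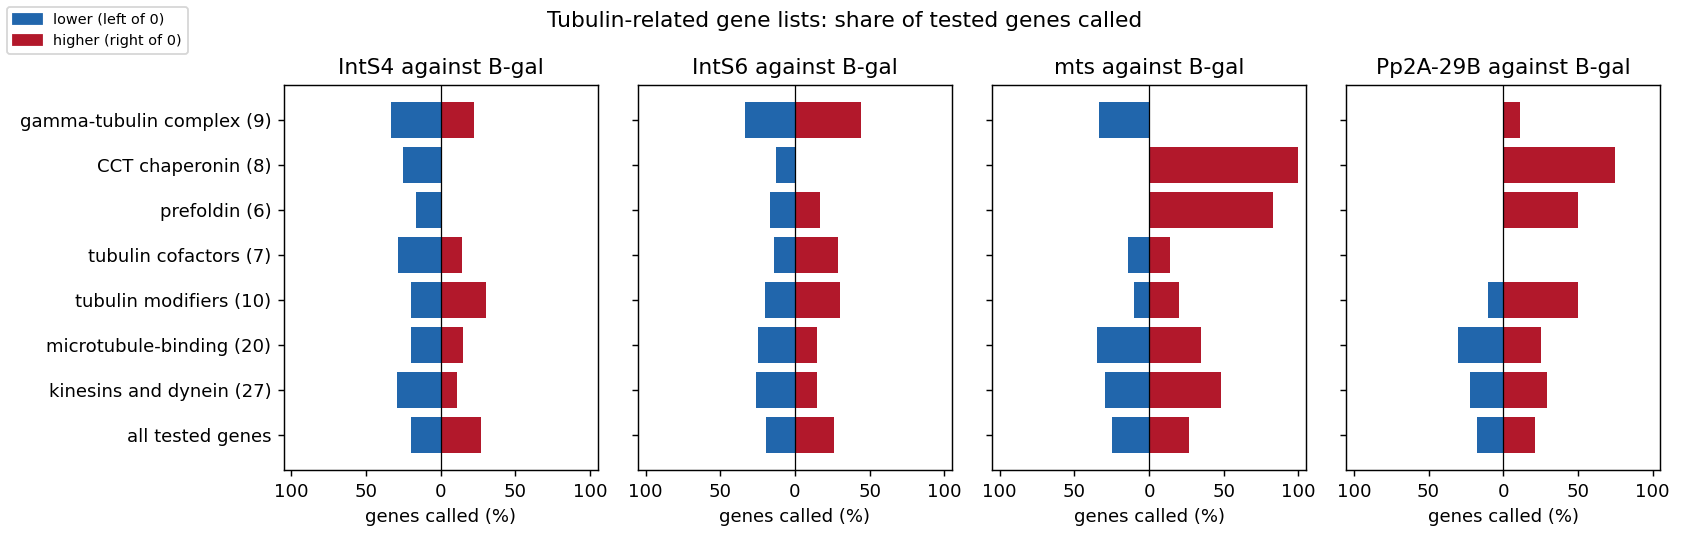
Share of tested genes called higher (right of 0) or lower (left of 0) against B-gal dsRNA, in percent on the horizontal axes, for 7 tubulin-related gene lists and for all tested genes, with 1 panel for each of the IntS4, IntS6, mts and Pp2A-29B dsRNA groups and the number of tested genes in parentheses. All 8 CCT genes are higher with mts and 6 of 8 with Pp2A-29B, and none is higher with the IntS4 or IntS6 label.

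Markers of blood cell types moved with the dsRNA groups as well, and their part in the tubulin values was not tested. All 6 lamellocyte (large encapsulating blood cell) markers had counts in every group. Their summed level was 1032.1 to 1139.4 CPM with the IntS4 label, 775.6 to 880.2 CPM with the IntS6 label, 1538.1 to 2237.6 CPM with mts and 988.2 to 1400.6 CPM with Pp2A-29B dsRNA, against 513.5 to 576.8 CPM with B-gal dsRNA and 536.3 to 625.1 CPM in Mock. Most of this sum came from cher, mys and msn in every group, at means of 186.6, 114.2 and 230.8 CPM with B-gal dsRNA. The defining marker atilla averaged 51.7 CPM with mts and 14.4 CPM with Pp2A-29B dsRNA, against 0.563 CPM with B-gal dsRNA, and stayed at 0.798 and 0.93 CPM with the IntS4 and IntS6 labels. The summed plasmatocyte markers were 845.7 to 1234.4 CPM with the IntS4 label, 837.1 to 1127.4 CPM with the IntS6 label, 470.7 to 520.7 CPM with mts and 397.9 to 434.8 CPM with Pp2A-29B dsRNA, against 218.5 to 237.2 CPM with B-gal dsRNA and 221.2 to 237.2 CPM in Mock. With the Integrator labels much of this came from Hml, at a mean of 609.1 CPM for IntS4 and 601 CPM for IntS6, against 2.86 CPM with B-gal dsRNA. Hml was at 115.2 CPM with mts and 63.5 CPM with Pp2A-29B dsRNA. In those PP2A groups He was at 149.8 and 99 CPM, against 31.9 CPM with B-gal dsRNA. eater was at 43.8 CPM with the IntS4 label and 50.5 CPM with the IntS6 label, against 44.2 CPM with B-gal dsRNA. It was at 78.3 CPM with mts and 90.8 CPM with Pp2A-29B dsRNA. Of the 10 neuron and muscle markers, the muscle myosin gene Mhc averaged 2.07 CPM with the IntS4 label and 1.09 CPM with the IntS6 label, against 0.0602 CPM with B-gal dsRNA, while elav made up most of their sum of 13.2 to 31.2 CPM. Crystal cell markers summed to 23.4 to 26.8 CPM with the IntS4 label and 7.66 to 13.2 CPM with the IntS6 label, nearly all from peb, against 0.835 to 1.19 CPM with B-gal dsRNA.

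The genes most like each tubulin gene were ranked by Pearson correlation of log2 CPM over the 18 libraries among the 5903 genes whose log2 CPM averaged 2 or more. The libraries fall into groups and share these groups and their depth across genes. The coefficients therefore describe how group levels vary together on the log2 scale, and the order of groups can still differ. For alphaTub85E the nearest were Dgk and PPO3 (both 0.976), MRP (0.974), sls (0.966) and CG43175 (0.959), of which PPO3, a prophenoloxidase gene, is also on the lamellocyte list. PPO3 averaged 208.8 CPM with the IntS4 label, 61.4 CPM with the IntS6 label, 141.7 CPM with mts and 52.3 CPM with Pp2A-29B dsRNA, against 5.69 CPM with B-gal dsRNA. For alphaTub84B they were CG30015 and kay (both 0.949), CG5446 (0.948), CG10383 (0.947) and CG13760 (0.943). For alphaTub84D they were yps (0.964), sti (0.955), His1:CG33813 (0.953), an entry without a symbol (0.951) and HDAC1 (0.948). For betaTub56D they were lncRNA:CR42491 (0.947), Ack-like (0.943), sfl (0.942), CG30089 and Fbl6 (both 0.94). For betaTub97EF they were Stim (0.964), beta'COP (0.963), C3G (0.962), CG6983 (0.961) and Sap-r (0.953). gammaTub23C had weaker likenesses, with Dph2 (0.872), ACC (0.867), ND-49 (0.857), eIF2A (0.853) and Mpcp2 (0.85).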

How the data were processed

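The authors' deposited table holds estimated counts, 1 row per gene and 1 column per library, without normalization. The submitters' processing notes name Trimmomatic 0.39, featureCounts and the builds dm6 and BDGP6. The aligner and the strand setting of counting are not given in the sources used here. Of the deposited expected count values, 90.1% lay within 0.005 of a whole number, and they were rounded. Libraries were rRNA-depleted and strand-specific, per the labels' protocols. Symbols (17626 entries), coordinates and lengths came from Ensembl 115 (BDGP6). No 2 libraries were identical, and replicates correlated at 0.978 or more.

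Tests used edgeR 4.0.16 in R 4.3.3: TMM, filterByExpr with a count minimum of 10 (8699 genes), 1 quasi-likelihood fit of 6 groups with 12 residual degrees of freedom, a common biological coefficient of variation of 0.131, two-sided, adjusted by Benjamini-Hochberg within each of 8 comparisons. The standard error of a log2 fold change is its size over the root of F, and 95% intervals use them with the residual degrees of freedom. CPM divide counts by the library total, ribosomal RNA included, times the TMM factor. TPM divide by merged exon length. The fit was tested on simulated data.

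The members and lists were chosen with earlier results of these data known. Named genes are all members, up to 3 called genes with the smallest adjusted p per list and comparison with B-gal, the 5 nearest genes by correlation, and neighbours of members. From these, examples were taken for the text. Replicate letters are biological replicate sets in the labels and were checked for pairing as correlated same-letter deviations. The lowest was 0.38 for IntS4, 0.25 for IntS6 and 0.13 for mts with B-gal, 0.57 for B-gal with Mock and 0.17 for Pp2A-29B with mts, which count as paired. Pp2A-29B with B-gal (-0.031) and IntS6 with IntS4 (0.058) do not. Alternatives were DESeq2 1.42.0, its size factors in edgeR, no filter, no ribosomal RNA entries, only the groups compared, a replicate block, each library left out, and for TPM the longest transcript or a total without ribosomal RNA. Added after the data were seen were alphaTub84B and alphaTub84D summed and Mock in place of B-gal.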

Additional observations from a re-analysis of the deposited data

How the results depend on the processing

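The calls of alphaTub84D against B-gal, of alphaTub84B with the Integrator labels, and of betaTub56D and betaTub97EF with mts and Pp2A-29B dsRNA kept their direction and side of the threshold under every alternative run. Across the alternatives other than the pair added after the data were seen, 555 values of single tubulin genes kept both, 34 lost a call, 6 gained one and 16 changed sign, and the cause was not tested. For IntS6 minus IntS4, whose letters are not paired by the check, a replicate block gave 2 tubulin genes and 943 genes, against 1 and 569, with betaTub56D added (0.35, adjusted p = 0.021), and leaving out 1 library gave 1 to 2 tubulin genes. For Pp2A-29B minus mts, which are paired, the replicate block gave 1457 genes against 848, only the groups compared gave 2 tubulin genes against 4, and leaving out 1 library gave 0 to 4 tubulin genes and 266 to 1093 genes. The replicate block changed no other tubulin call than these and that of betaTub56D with the IntS4 label. Sign changes were all of differences not called: alphaTub84B with mts (-0.07 summed with alphaTub84D, -0.09 against Mock), gammaTub23C with mts (0.02 without the filter, 0.01 without ribosomal RNA entries) and betaTub56D with the IntS6 label (-0.06 against Mock). With 1 library left out, such differences ran from -0.02 to 0.23 for betaTub56D with the IntS6 label, -0.04 to 0.07 and -0.1 to 0.04 for alphaTub84B and gammaTub23C with mts, and -0.07 to 0.17 for alphaTub84D between B-gal and Mock. Between IntS6 and IntS4 they ran from -0.14 to 0.06 for alphaTub84B, -0.01 to 0.25 for alphaTub84D and -0.05 to 0.23 for betaTub97EF, and between Pp2A-29B and mts from -1.47 to 0.13 for alphaTub85E. Without ribosomal RNA in the total, alphaTub84B with B-gal dsRNA was at 3399.1 TPM in place of 1633.4, with the order of genes within a library fixed by construction. gammaTub23C was called between the PP2A and Integrator pairs without ribosomal RNA entries (0.24, adjusted p = 0.043). Ribosomal RNA took most counts, which limits alphaTub85E in the B-gal and Mock libraries, alphaTub67C and betaTub85D.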
